A study of Mus musculus with 12 samples.

Results

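The genes described here are 42 subunits of the mitochondrial oxidative phosphorylation system, measured by RNA sequencing in mouse duodenum. They were taken by symbol from a fixed list, 29 encoded in the nucleus and 13 by the mitochondrial genome (the mt members). All 42 were found in both deposited count tables, which list 28066 and 28731 genes. By complex, complex I (NADH dehydrogenase) has 13 nuclear and 7 mt members and complex II (succinate dehydrogenase) 4 nuclear and 0 mt members. Complex III (cytochrome bc1) has 5 and 1, complex IV (cytochrome c oxidase) 5 and 3, and complex V (ATP synthase) 2 and 2. Ndufa4, listed with complex I, is now regarded as a subunit of complex IV.

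Complexes I to IV pass electrons from NADH and succinate to oxygen, and all but complex II pump protons that drive ATP synthesis by complex V. Apart from complex II, each complex is built from proteins made in the cytosol and proteins made inside the mitochondrion, so that messenger RNAs from separate genomes supply each assembly. The mitochondrial genes are read as long transcripts of either strand that are cut at transfer RNAs, and absorptive enterocytes are rich in mitochondria that power nutrient transport.

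The animals were of strain C57BL/6N, and each of the 4 groups (Chow, HFD, HFD Vehicle, HFD PCN) had 3 libraries, 12 in all. Animals entered a regular chow or a high-fat diet (HFD) at 6 weeks of age and remained on it for 18 weeks. Obese mice of the HFD PCN group were injected into the peritoneum once a day for 4 days with 50 mg/kg of PCN (pregnenolone 16α-carbonitrile), which activates the pregnane X receptor (PXR) of rodents, and those of the HFD Vehicle group with corn oil holding 30% DMSO. Chow and HFD mice have no injection in their labels. Libraries carry a number each, used below (HFD 38), and nothing says that they came from separate animals, so p-values may measure only the spread between these samples.

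Library totals ran from 4676718 (HFD Vehicle 55) to 20684369 counts (HFD PCN 5). The tissue label is duodenum whereas the extraction protocol speaks of liver. The 10 enterocyte markers (among them Vil1, Sis, Alpi and Apob) summed to 10431 CPM (counts scaled to a library total of 1000000) in HFD Vehicle 23, 20595 CPM in HFD 4 and 31657 to 50534 CPM elsewhere. The 6 hepatocyte markers matched in both tables summed to 1.83 to 8.13 CPM, with Alb at most 1.11 CPM. HFD Vehicle 23 and HFD Vehicle 50 stood apart in the 6 heat shock and stress genes matched in both tables, which summed to 2692 and 2972 CPM against 339 to 1240 CPM elsewhere. In HFD 4, 13% of counts came from CT010467.1, a transcript related to 18S ribosomal RNA that is named because of this value. It took 1.03% in HFD 30 and 2.72% in HFD 38, against 0.0139%, 0.0246% and 0.0127% in Chow 8, 17 and 19. It has no value in the HFD Vehicle and HFD PCN libraries.

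The 13 mt members fell into a high and a very low set, and the very low set was contiguous on the mitochondrial genome. Along chr1:24611535-24616197 (GRCm38, 4663 bases) lie 7 annotated pseudogenes that copy mitochondrial positions 6381 to 11042 in reverse. Wholly inside the copied positions are 6 mt members: mt-Co2 and mt-Co3 of complex IV, mt-Atp6 and mt-Atp8 of complex V, and mt-Nd3 and mt-Nd4l of complex I. Partly inside are mt-Co1 (31.8% of its length) and mt-Nd4 (63.6%), and wholly outside are mt-Nd1, mt-Nd2, mt-Nd5, mt-Nd6 and mt-Cytb. This split was chosen after the values were seen.

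In GENCODE M21 transcripts, mt-Co2 and its copy Gm28661 were identical over 681 of 681 aligned bases. The first 60 bases of each are shown because a read from here cannot be assigned to either by its letters.
mt-Co2: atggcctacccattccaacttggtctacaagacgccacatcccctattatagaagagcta
Gm28661: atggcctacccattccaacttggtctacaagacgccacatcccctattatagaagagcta
The other pairs were as close. For mt-Co3 and Gm28437, 783 of 783 bases were identical, and for mt-Atp6 and Gm10925, 678 of 678. For mt-Nd4l and Gm10222, 294 of 294 were identical, for mt-Nd3 and Gm28438, 344 of 345, and for the first part of mt-Nd4 and Gm28439, 876 of 876. Only the last 43 bases of mt-Atp8 matched an annotated copy, in Gm10925, and 43 of 43 were identical. The copy Gm29216 begins inside mt-Co1, with 486 of 492 bases identical. All 6 mismatches lie at the edge of the copy, shown here from base 1054 of mt-Co1 with differing bases in capitals.
mt-Co1: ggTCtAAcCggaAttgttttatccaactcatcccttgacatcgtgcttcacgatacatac
Gm29216: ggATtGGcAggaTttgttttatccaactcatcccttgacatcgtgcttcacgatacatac
Counted from the first base of mt-Co1, with its own base first, these are T1056A, C1057T, A1059G, A1060G, C1062A and A1066T.

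The boundary in sequence was also a boundary in level. Per kilobase of length, median levels of the 6 members inside the copied positions were 0.942 (mt-Nd4l) to 23.0 CPM per kb (mt-Co2). Those of the other 7 were 204 (mt-Nd6) to 14919 CPM per kb (mt-Co1). The 6 together held 187 to 923 counts per library, or 0.0715% to 0.128% of the counts of the 13. The pseudogenes held 352 to 2054 counts per library. In the libraries with most counts in the 6 members, HFD PCN 5 (923) and HFD PCN 11 (831), the pseudogenes also held most (2054 and 1838). These are raw counts not scaled to library totals, and HFD PCN 5 had the highest total (20684369), so this order shows no link between them. How reads that match more than 1 place were counted is not given in the sources used here, so the levels of these 6 members are uncertain and their part in the low counts was not tested.

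**Figure D1:**
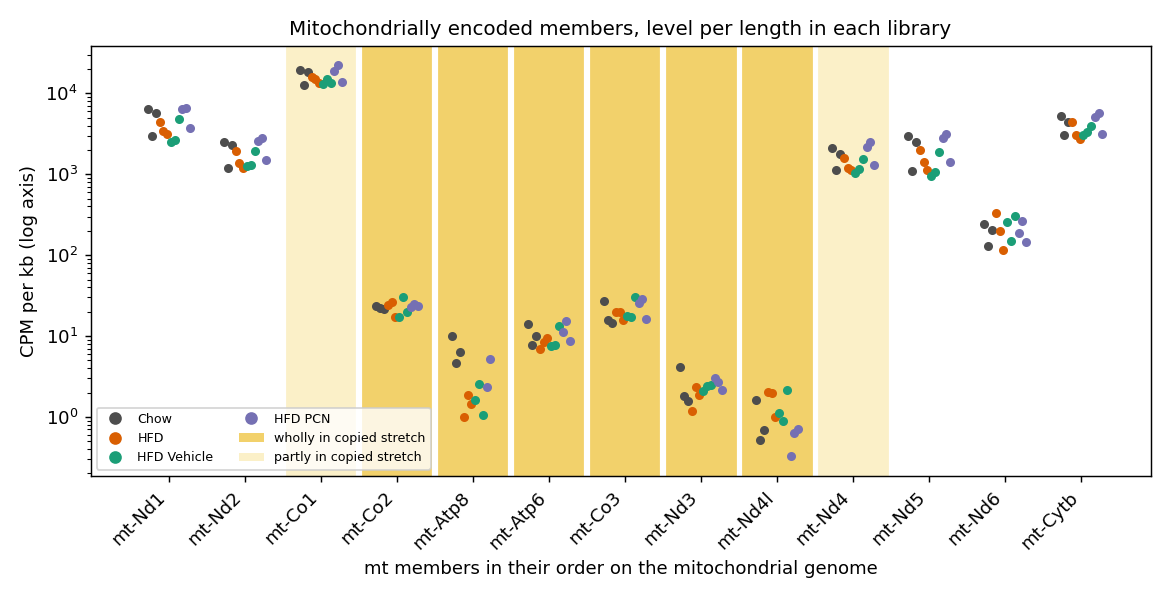
CPM per kb of gene length (log axis) of the 13 mt members in genome order, 1 point per library, coloured by group; shading marks members wholly or partly inside the positions copied on chromosome 1. Median levels of the 6 fully shaded members were at most 23.0 CPM per kb against at least 204 for the other 7, and a point at 0 (mt-Atp8 in HFD PCN 27) is not drawn.

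Among the 7 high mt members, mt-Co1, the catalytic core of cytochrome c oxidase, held 55.2% to 66.9% of all mt member counts. Its CPM was 30093, 19398 and 28438 in Chow 8, 17 and 19, and 24364, 23087 and 20586 in HFD 4, 30 and 38. In HFD Vehicle 23, 50 and 55 it was 20150, 23012 and 20743, and in HFD PCN 5, 11 and 27 it was 29227, 34235 and 21525. The ranges of all 4 groups overlapped. Next per length came mt-Nd1, a membrane subunit of complex I (median 4117 CPM per kb), and mt-Cytb, the haem-bearing core of complex III (3633). This order uses full lengths. Divided only by the bases outside the copied positions, mt-Nd4 had 3917 rather than 1427 CPM per kb, above mt-Cytb, and mt-Co1 had 21889.

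The largest spread among these 7 was that of mt-Nd5, a proton-pumping subunit of complex I, at 3.30-fold between its highest and lowest CPM, and the smallest that of mt-Co1 at 1.76-fold. As a share of mt member counts, mt-Nd5 ran from 5.6% (HFD Vehicle 23) to 10.3% (Chow 8), mt-Nd1 from 7.35% to 12.2%, and mt-Cytb from 9.91% to 12%. The only member on the light strand is mt-Nd6, another complex I subunit. It stood at 59.8 (HFD 38) to 174 CPM (HFD 4) and did not follow the others, since HFD 4, HFD Vehicle 55, HFD PCN 11 and HFD Vehicle 23 were its 4 highest libraries. Whether the counting used strand is not given in the sources used here, and mt-Nd6 overlaps the end of mt-Nd5 on the opposite strand, so reads there may not be told apart.

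Per length, the medians of the nuclear members ran from 12.8 (Ndufb5) to 343 CPM per kb (Atp5a1). Of the 7 high mt members, mt-Nd6 (204) lay inside this range and the other 6 above it. The lengths are sums of annotated exons and can exceed the transcript in use. Both ATP synthase members led: Atp5a1 and Atp5b encode the alpha and beta subunits of its catalytic head, at 343 and 265 CPM per kb. Cox4i1 of complex IV (163), Sdhd, a membrane anchor of complex II (151), and Sdha, its flavoprotein (105), followed. Over the 12 libraries the highest CPM of a member was 1.5 (Ndufs1) to 4.40 times (Ndufa4) its lowest.

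The 29 nuclear members together took 0.453%, 0.579% and 0.509% of counts in Chow 8, 17 and 19 and 0.392%, 0.549% and 0.686% in HFD 4, 30 and 38. They took 0.30%, 0.570% and 0.621% in HFD Vehicle 23, 50 and 55 and 0.510%, 0.454% and 0.661% in HFD PCN 5, 11 and 27. HFD Vehicle 23 was lowest and HFD 38 highest, and the ranges of the 4 groups overlapped. The lowest 2, HFD Vehicle 23 and HFD 4, were also lowest in enterocyte markers; the part of these in the shares was not tested. In bulk tissue, fewer cells of a type and less RNA per cell cannot be told apart.

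The 13 mt members took 5.33%, 3.06% and 4.86% in the Chow libraries and 4.18%, 3.57% and 3.17% in the HFD libraries, in the same order. They took 3.08%, 3.44% and 3.76% in HFD Vehicle and 5.21%, 5.95% and 3.48% in HFD PCN. Here Chow 8, Chow 19, HFD PCN 5 and HFD PCN 11 were the 4 highest, and Chow 17 and HFD PCN 27 stood with the other groups. The shares thus separated libraries inside the Chow and HFD PCN groups more than they separated groups.

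The ratio of mt to nuclear member counts within a library does not depend on its total. It was 11.8, 5.29 and 9.55 in Chow, 10.7, 6.50 and 4.62 in HFD, 10.3, 6.03 and 6.06 in HFD Vehicle, and 10.2, 13.1 and 5.26 in HFD PCN. Each group held at least 1 library above 10 and at least 1 under 7. Group means were 8.87 ± 3.29 (Chow), 7.26 ± 3.09 (HFD), 7.45 ± 2.44 (HFD Vehicle) and 9.53 ± 3.97 (HFD PCN; SD, n = 3 each), so the means differed by less than the spread inside a group.

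The share of mitochondrial ribosomal RNA (mt-Rnr1 and mt-Rnr2) did not track that of the mt members in every group. Within HFD and HFD PCN both shares ranked the libraries in the same order, in Chow they did not, and in HFD Vehicle the order was reversed. This rRNA took 33.6% of counts in HFD Vehicle 23, the library with the second lowest mt member share (3.08%), and 8.69% to 19.2% elsewhere. Per mt member count there were 10.9 rRNA counts in HFD Vehicle 23 and 1.91 (HFD PCN 5) to 4.85 (HFD Vehicle 50) in the other libraries. The 3 HFD PCN libraries had 1.91, 2.93 and 2.5 and the 3 HFD Vehicle libraries 10.9, 4.85 and 3.37, without overlap, a description of libraries of which HFD Vehicle 23 stands apart. With rRNA left out of the total, the nuclear share of HFD Vehicle 23 was 0.451%, still the lowest, and HFD 38 at 0.754% still the highest.

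**Figure D2:**
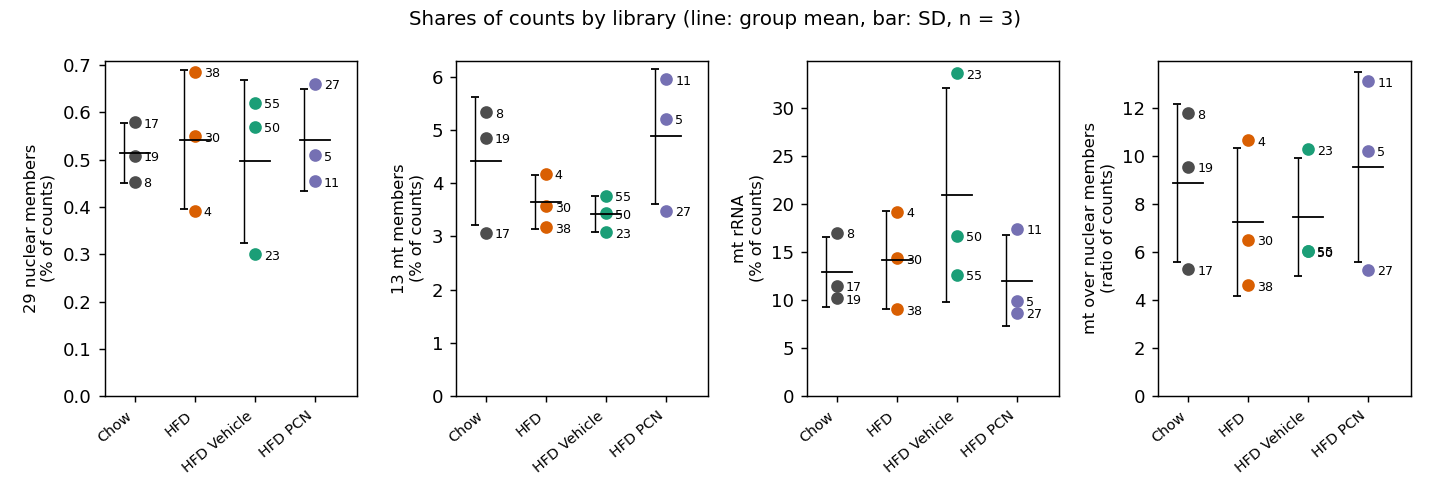
Shares of library counts (%) in the 29 nuclear members, the 13 mt members and mitochondrial rRNA, and the ratio of mt to nuclear member counts, by group; points are libraries with their numbers, the line is the mean and the bar the SD (n = 3). HFD Vehicle 23 lies lowest in the nuclear share (0.30%) and highest in rRNA (33.6%), and in the ratio each group spans libraries under 7 to libraries above 10.

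The first comparison asked what the diet changed, HFD against Chow. By edgeR's quasi-likelihood test with Benjamini-Hochberg adjustment, 0 of 42 members passed an adjusted p of 0.05, where 10 of 15278 genes (0.0655%) did. Of the 29 nuclear members, 27 had a positive log2 fold change, with a median of 0.28, beside a median of 0.005 and 50.5% positive over all genes tested. Of the 13 mt members, 11 passed the filter on low counts, 3 with a positive and 8 with a negative value and a median of -0.19. At an unadjusted p under 0.05 stood 8 nuclear members and 1 mt member (10.3% of all genes), and DESeq2 called 0 members and 0.921% of genes.

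In complex II, the only one with no mitochondrial subunit, all 4 values were positive with a median of 0.36. Sdhc (ENSMUSG00000058076, chr1:171127165-171150603, minus strand), which anchors the complex in the membrane, stood at 85.1, 95.4 and 77.7 normalised CPM (scaled by edgeR's TMM factors within the comparison) in Chow 8, 17 and 19. It stood at 103, 142 and 125 in HFD 4, 30 and 38, all above the Chow libraries. Its log2 fold change was 0.52 with an SE of 0.17, the smallest p of the nuclear members, and edgeR's adjusted p was 0.358. The flavoprotein gene Sdha stood at 380, 417 and 382 in Chow and 391, 519 and 519 in HFD, with Chow 17 above HFD 4 (log2 fold change 0.28, edgeR's adjusted p 0.599).

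Sdhc was 1 of 6 nuclear members (20.7%) whose groups did not overlap, against 16.3% of all genes. The other 5 were all of complex I: Ndufb5, Ndufb8 and Ndufb10 of its membrane arm, and Ndufs1 and Ndufs3 of its matrix arm. Ndufb8 stood at 39.2, 43.9 and 38.7 normalised CPM in Chow and 48.3, 54.3 and 59.8 in HFD (log2 fold change 0.42, SE 0.15, edgeR's adjusted p 0.409). Ndufs3 stood at 37.9, 48.6 and 38.2 in Chow and 52.8, 56.0 and 56.4 in HFD (0.41, SE 0.15, edgeR's adjusted p 0.425).

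Ndufb10 stood at 51.4, 55.7 and 48.8 in Chow and 58.2, 69.5 and 70.2 in HFD (0.35, SE 0.15, edgeR's adjusted p 0.462). Ndufs1, the iron-sulfur subunit that had the most counts of the nuclear members of complex I, showed how tight such a separation can be: 146, 148 and 140 in Chow and 160, 164 and 164 in HFD, a log2 fold change of 0.17. All 13 complex I values were positive, from 0.04 (Ndufb3) to 0.42 (Ndufb8), a statement of sign and not of calls.

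The 2 largest positive values lay in complexes III and IV and came with wide spread. Cyc1, the cytochrome c1 subunit of complex III, stood at 76.0, 152 and 80.6 normalised CPM in Chow 8, 17 and 19 and 135, 166 and 187 in HFD 4, 30 and 38 (log2 fold change 0.67, SE 0.26, edgeR's adjusted p 0.444). Chow 17 lay above HFD 4, and the other Chow libraries lay far under all HFD libraries. Cox5a, a structural subunit of complex IV, had the same layout at 58.5, 104 and 51.3 in Chow and 94.6, 120 and 114 in HFD (0.62, SE 0.25, edgeR's adjusted p 0.446). Without Chow 17 the values became 1.06 for Cyc1 and 1 for Cox5a, and neither was called. The lowest of edgeR's adjusted p over all members was then 0.113 (Cox5a). It was 0.736 (mt-Atp8) without Chow 8 and 0.991 (Cox5a) without Chow 19.

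The most counted nuclear members of complexes III, IV and V overlapped between groups. Uqcrc1, a core protein of complex III, stood at 274, 337 and 257 in Chow and 266, 384 and 384 in HFD (log2 fold change 0.25). Cox4i1 stood at 208, 260 and 223 and at 216, 281 and 290 (0.19). Atp5b stood at 942, 1190 and 999 and at 880, 1209 and 1392 (0.15).
HFD 4 was the lowest HFD library for all 3 of these genes. Only Cox6c of complex IV (-0.18) and Uqcrc2 of complex III (-0.02) had negative values, and the remaining nuclear members ran from 0.04 to 0.47.

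The mt members differed widely between the Chow libraries. Normalised CPM of mt-Nd5 was 5531, 1877 and 4116 in Chow 8, 17 and 19 and 4300, 2804 and 1959 in HFD 4, 30 and 38 (log2 fold change -0.35, SE 0.42, edgeR's adjusted p 0.786). That of mt-Nd1 was 6180, 2645 and 5049 and 4993, 3512 and 2891 (-0.28, SE 0.36). In both, Chow 17 was the lowest of the 6 libraries and the groups overlapped. The values of mt-Nd2, mt-Nd4, mt-Cytb and mt-Co1 were -0.23, -0.19, -0.12 and -0.03, and mt-Nd6 had 0.35.

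Of the members inside the copied positions, mt-Co2 (0.19), mt-Co3 (0.10) and mt-Atp6 (-0.21) had small values. A small ATP synthase subunit is encoded by mt-Atp8, which stood at 2.07, 0.866 and 1.17 normalised CPM in Chow and 0.237, 0.408 and 0.284 in HFD, without overlap. Of the 11 mt members tested, 1 (9.09%) had no overlap, beside 16.3% of all genes. The log2 fold change of mt-Atp8 was -2.01 (SE 0.53, edgeR's adjusted p 0.272). It rests on 17, 6 and 19 raw counts against 1, 7 and 5, and passed the filter only through the Chow libraries. In the table of the other groups HFD Vehicle had 6, 10 and 1 counts and HFD PCN 10, 17 and 0.

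Beside these values, enterocyte markers split 5 positive to 5 negative (median 0.04). Fibroblast markers had 6 positive and 4 negative values (median 0.42) and smooth muscle markers 7 and 3 (median 0.22). Crypt and proliferation markers had 2 positive and 8 negative values (median -0.33), with 0 called in each list. All 9 pancreatic acinar markers tested were negative (median -3.17, 0 called), summing to 49.0 to 142 CPM in Chow and 4.72 to 23.3 CPM in HFD with none of the list at 0 in all libraries. All 10 T and NK cell markers (median -1.28, 0 called) and all 7 heat shock and stress genes tested (median -0.49, 0 called) were negative too. So were all 8 Paneth cell markers tested (median -0.46), of which 1 was called, Mptx2 (-5.59, edgeR's adjusted p 0.0403). Both mitochondrial rRNAs had positive values (0.34 for mt-Rnr1 and 0.32 for mt-Rnr2, edgeR's adjusted p 0.83 and 0.847). The part of these in the members' values was not tested. Leaving out Chow 8 turned the mt median to 0.09, and leaving out HFD 38 lowered the nuclear median to 0.17.

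**Figure D3:**
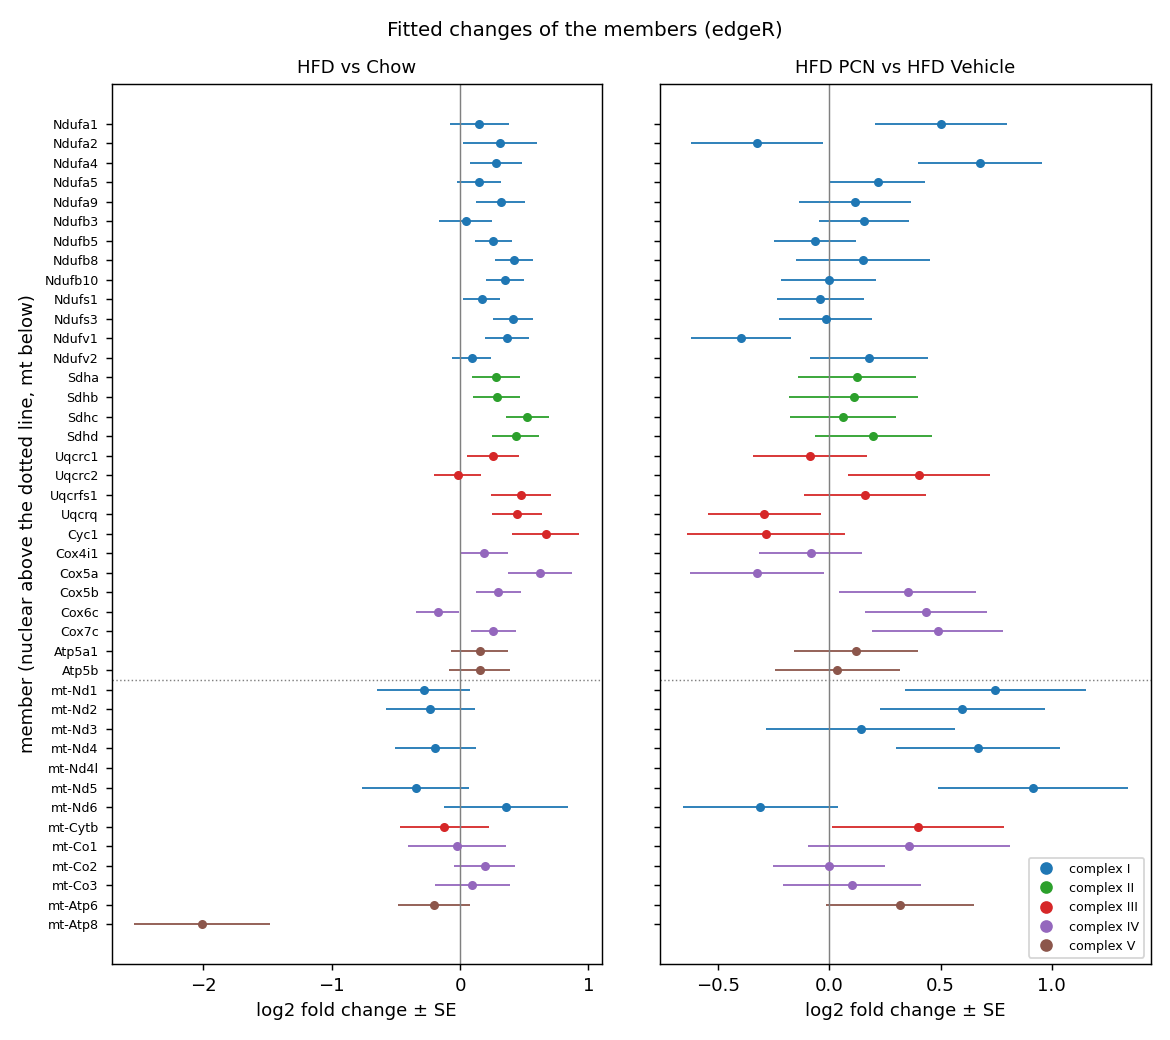
Log2 fold changes with their SE from edgeR for the members that passed the filter, in HFD against Chow (left) and HFD PCN against HFD Vehicle (right, on a different scale), nuclear members above the dotted line and coloured by complex. In HFD against Chow 27 of 29 nuclear values are positive and 8 of 11 mt values negative; in HFD PCN against HFD Vehicle 9 of 11 mt values are positive, and none of the members passed the threshold.

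The second comparison asked what PCN changed in obese mice, HFD PCN against HFD Vehicle. Again 0 of 42 members were called by edgeR, where 10 of 16110 genes (0.0621%) were, and DESeq2 called 0 members and 1.99% of genes. The mt members leaned up, 9 of the 11 tested with positive values and a median of 0.36. The nuclear members divided into 18 positive and 11 negative with a median of 0.11, beside -0.01 and 49% positive over all genes. At an unadjusted p under 0.05 stood 1 member, Ndufa4, against 17.9% of all genes.

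Subunits of complex I led among the mt members. Normalised CPM of mt-Nd5 (ENSMUSG00000064367, mitochondrial positions 11742 to 13565) was 2120, 1928 and 3064 in HFD Vehicle 23, 50 and 55 and 5032, 6151 and 2234 in HFD PCN 5, 11 and 27. HFD PCN 5 and 11 were well above every HFD Vehicle library, and HFD PCN 27 lay among them. The log2 fold change was 0.92 with an SE of 0.43 and edgeR's adjusted p was 0.292. The same layout held for mt-Nd1, at 2977, 2488 and 4114 and 6095, 6868 and 3113 (0.75, SE 0.41), and for mt-Nd4 (0.67), while for mt-Nd2 (0.60) HFD PCN 27 was just under the lowest HFD Vehicle library.

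Core genes of the later complexes had smaller values. For mt-Cytb they were 4361, 3746 and 4043 against 5746, 7122 and 3127 (0.40), and for mt-Co1 24780, 22650 and 18610 against 29040, 37000 and 18640 (0.36). In both, HFD PCN 27 was low in its group. Opposite in sign was mt-Nd6 (-0.31), at 164, 77.2 and 144 against 97.8, 147 and 65.4. The low members mt-Atp6 (0.32), mt-Nd3 (0.14), mt-Co3 (0.10) and mt-Co2 (-0.002) were near 0 relative to their SE of 0.25 to 0.43.

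Of the nuclear members, Ndufa4 (ENSMUSG00000029632, chr6:11900292-11907497, minus strand) had the smallest p. It stood at 26.2, 51.8 and 52.2 normalised CPM in HFD Vehicle 23, 50 and 55 and 66.9, 60.6 and 80.6 in HFD PCN, without overlap (log2 fold change 0.68, SE 0.28, edgeR's adjusted p 0.261). The accessory complex I subunit Ndufa1 also had no overlap, at 12, 23.7 and 28.2 against 29.2, 31.5 and 29.2 (0.50, SE 0.30). These 2 were 6.9% of the nuclear members, beside 19.3% of all genes without overlap. For both, HFD Vehicle 23 was far below the other HFD Vehicle libraries.

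HFD Vehicle 23 was also the low library for the small complex IV subunits and a complex III core protein. Cox7c stood at 28.3, 44.4 and 69.2 against 66.2, 63.2 and 68.2 in HFD PCN (0.49, SE 0.29). Cox6c stood at 70.1, 114 and 145 against 153, 162 and 129 (0.43), and Uqcrc2 at 96.1, 168 and 251.1 against 245, 220 and 214 (0.40). In all 3, HFD Vehicle 23 was lowest and HFD Vehicle 55 lay at or near the level of the HFD PCN libraries.

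Among the nuclear genes with negative values was Ndufv1, the subunit of complex I that binds NADH, at 117, 140 and 97.1 in HFD Vehicle against 79.0, 81.9 and 108 in HFD PCN (-0.40, SE 0.22, edgeR's adjusted p 0.349). Ndufa2 (-0.33), Cox5a (-0.33), Uqcrq (-0.29) and Cyc1 (-0.29) were negative as well. The most counted nuclear genes of complexes II and V were close in both groups, Sdha at 274, 460 and 452 against 407, 435 and 450 (0.12) and Atp5b at 810, 1250 and 1176 against 1118, 1002 and 1197 (0.04). Apart from HFD Vehicle 23, the lowest library for both, no HFD Vehicle library was under its HFD PCN counterparts' lowest value.

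The nuclear median became -0.10 without HFD Vehicle 23 (8 positive and 21 negative) and -0.02 without HFD PCN 27, and it was -0.07 with untreated HFD as the control (10 positive and 19 negative). Without HFD Vehicle 55, the shallowest library, 1 member was called, Cox7c (0.87, edgeR's adjusted p 0.0228), in a fit that called 22% of all genes. All 10 enterocyte markers had positive values (median 0.54, 0 called), summing to 10431, 31657 and 47788 CPM in HFD Vehicle and 37709 to 49548 CPM in HFD PCN. All 8 heat shock and stress genes tested (median -2.21) and all 10 Paneth cell markers (median -2.25) had negative values, with 0 called. So did all 10 smooth muscle markers (median -0.69), 9 of 10 fibroblast markers (median -0.60) and all 9 pancreatic acinar markers tested (median -2.34), while all 10 T and NK cell markers had positive values (median 1.18), with 0 called in each list. Both mitochondrial rRNAs had negative values, -1.10 for mt-Rnr1 and -0.90 for mt-Rnr2 (edgeR's adjusted p 0.339 and 0.484), opposite in sign to most mt members; the part of these markers in the members' values was not tested.

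HFD Vehicle was set against untreated HFD to place the injected controls; the comparison shares its libraries with the other comparisons and joins counts of both tables. By edgeR 0 members and 0 of 16255 genes (0%) were called, 953 genes (5.86%) stood at an unadjusted p under 0.05, and DESeq2 called 0.179% of genes and 0 members. Nuclear members had 2 positive and 27 negative values with a median of -0.17, where 50.7% of all genes were positive, and the 12 mt members tested split 6 to 6 with a median of 0.01. No member had groups without overlap, beside 9.92% of all genes.

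Ndufa4 had the smallest p, at 49.0, 60.9 and 85.6 normalised CPM in HFD 4, 30 and 38 and 27.0, 52.1 and 53.0 in HFD Vehicle 23, 50 and 55 (log2 fold change -0.57, SE 0.31, edgeR's adjusted p 0.803). Sdhc stood at 98.4, 138 and 120 against 68.0, 103 and 101 (-0.40), and Ndufb8 at 46.1, 53.0 and 57.4 against 24.9, 42.7 and 50.3 (-0.42). Uqcrfs1, the Rieske iron-sulfur protein of complex III, stood at 86.2, 152 and 140 against 62.7, 109 and 112 (-0.42). In all 4 genes HFD Vehicle 23 was lowest and HFD 4 lowest in its own group.

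Cox5a (90.3, 117 and 109 against 69.5, 101 and 86.9) and Cyc1 (128, 162 and 179 against 97.7, 142 and 139) had log2 fold changes of -0.30 and -0.32. Without HFD Vehicle 23 the nuclear median was 0.01, with 16 positive and 13 negative. Enterocyte markers had 1 positive and 9 negative values (median -0.25), and heat shock and stress genes 6 positive of 6 tested (median 2.17, 0 called). All 9 Paneth cell markers tested (median 2.06) and all 9 pancreatic acinar markers tested (median 1.72) had positive values, as did 9 of 10 crypt and proliferation markers (median 0.60) and 9 of 10 smooth muscle markers (median 0.18), with 0 called in each list. All 10 T and NK cell markers had negative values (median -0.63, 0 called). For all these lists, their part in the members' values was not tested.

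The genes around the members were read from lists of the same pathway. Of 50 other nuclear subunits tested, 39 were positive in HFD against Chow (median 0.20), 38 in HFD PCN against HFD Vehicle (0.29) and 7 in HFD Vehicle against HFD (-0.25), with 0 called in each. Ndufa11, a membrane-arm subunit of complex I, stood at 18.4 ± 2.09 normalised CPM in Chow and 29.4 ± 5.83 in HFD (SD, n = 3 each; log2 fold change 0.70, SE 0.19, edgeR's adjusted p 0.289), without overlap. Ndufc2, also of complex I, had 0.76 (SE 0.25, edgeR's adjusted p 0.38) with overlap. Of the 50, 6 (12%) had no overlap between HFD and Chow, beside 16.3% of all genes. In HFD PCN against HFD Vehicle, Ndufa12 (0.75) and Ndufb4 (0.97) had edgeR's adjusted p of 0.273 each.

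Assembly factors, which build the complexes without staying in them, were positive for 33 of 44 in HFD against Chow (median 0.15), 27 of 44 in HFD PCN against HFD Vehicle (0.13) and 9 of 44 in HFD Vehicle against HFD (-0.12), with 0 called in each. Cox14 (0.83, edgeR's adjusted p 0.303) and Cox19 (0.54, edgeR's adjusted p 0.399), both needed for complex IV, had no overlap between HFD and Chow. They were among 8 of 44 (18.2%) without overlap, near the 16.3% of all genes. In HFD PCN against HFD Vehicle, Cox16 (1.04) and Cox18 (-1.11) had opposite signs, both without overlap and each with edgeR's adjusted p of 0.231. Here 12 of 44 (27.3%) had no overlap, beside 19.3% of all genes. The 18 citric acid cycle genes, which feed the chain, had 14, 15 and 3 positive values in the 3 comparisons and 0 called.

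Genes that express the mitochondrial genome were described by further lists. The list of mitochondrial transcription, RNA processing and DNA upkeep had 15 of 34 positive in HFD against Chow (median -0.08), 14 in HFD PCN against HFD Vehicle (-0.12) and 24 in HFD Vehicle against HFD (0.10), with 0 called in each. Polrmt, the mitochondrial RNA polymerase, was at 18.1 ± 5.29 normalised CPM in HFD Vehicle and 11.0 ± 1.75 in HFD PCN (SD, n = 3 each, log2 fold change -0.73, SE 0.27, edgeR's adjusted p 0.244), with overlap. Pnpt1, of the same list, went the other way (0.69, edgeR's adjusted p 0.246), without overlap. In that comparison 5 of the 34 (14.7%) had no overlap, beside 19.3% of all genes, and the mt median was positive. Of the 48 genes of the large mitochondrial ribosomal subunit, 30, 35 and 18 were positive, with 0 called.

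The 13 tested regulators of mitochondrial gene expression had 5, 7 and 9 positive values and 0 called. Esrra, the estrogen-related receptor alpha that acts on many respiratory genes, stood at 117 ± 22.9 normalised CPM in Chow and 196 ± 45.8 in HFD (SD, n = 3 each, log2 fold change 0.74, SE 0.21, edgeR's adjusted p 0.301), without overlap. In that comparison 3 of the 13 (23.1%) had no overlap, beside 16.3% of all genes. Gabpa, of the same list, had a negative value (-0.39, edgeR's adjusted p 0.468), with overlap. The related coactivators Ppargc1b (-0.82) and Pprc1 (-0.92) had negative values in HFD PCN against HFD Vehicle, with edgeR's adjusted p of 0.241 and 0.246.

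Scaled to counts outside the mitochondrial genome, the nuclear members moved largely together in some libraries and were divided in others. HFD 38 and HFD PCN 27 had all 29 nuclear members above the member's own median over the 12 libraries, and 0 of the 7 high mt members. HFD 4 and Chow 8 had 2 of 29 nuclear and all 7 of these mt members above. HFD PCN 11 had 10 of 29 and 7 of 7. HFD Vehicle 55 had 24 of 29 and 5 of 7, so nuclear and mt members did not oppose each other in that library.

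Within complex III, Cyc1 counts per Uqcrc2 count were 0.398, 0.774 and 0.40 in Chow 8, 17 and 19 and 0.852, 0.914 and 0.776 in HFD. They were 0.989, 0.841 and 0.544 in HFD Vehicle 23, 50 and 55 and 0.34, 0.266 and 0.766 in HFD PCN 5, 11 and 27. Within complex IV, Cox5a per Cox6c gave 0.444, 0.824 and 0.344, then 0.924, 1.05 and 0.792, then 0.964, 0.882 and 0.592, and 0.345, 0.301 and 0.784 in the same order of libraries. Both ratios, chosen after their values were seen and given without a test, were lowest in Chow 8, Chow 19, HFD PCN 5 and HFD PCN 11. These 4 libraries were also the highest in CPM of mt-Nd1, mt-Nd2, mt-Nd4, mt-Nd5, mt-Cytb and mt-Co1, though not of mt-Nd6. HFD Vehicle 55 came next in both ratios.

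**Figure D4:**
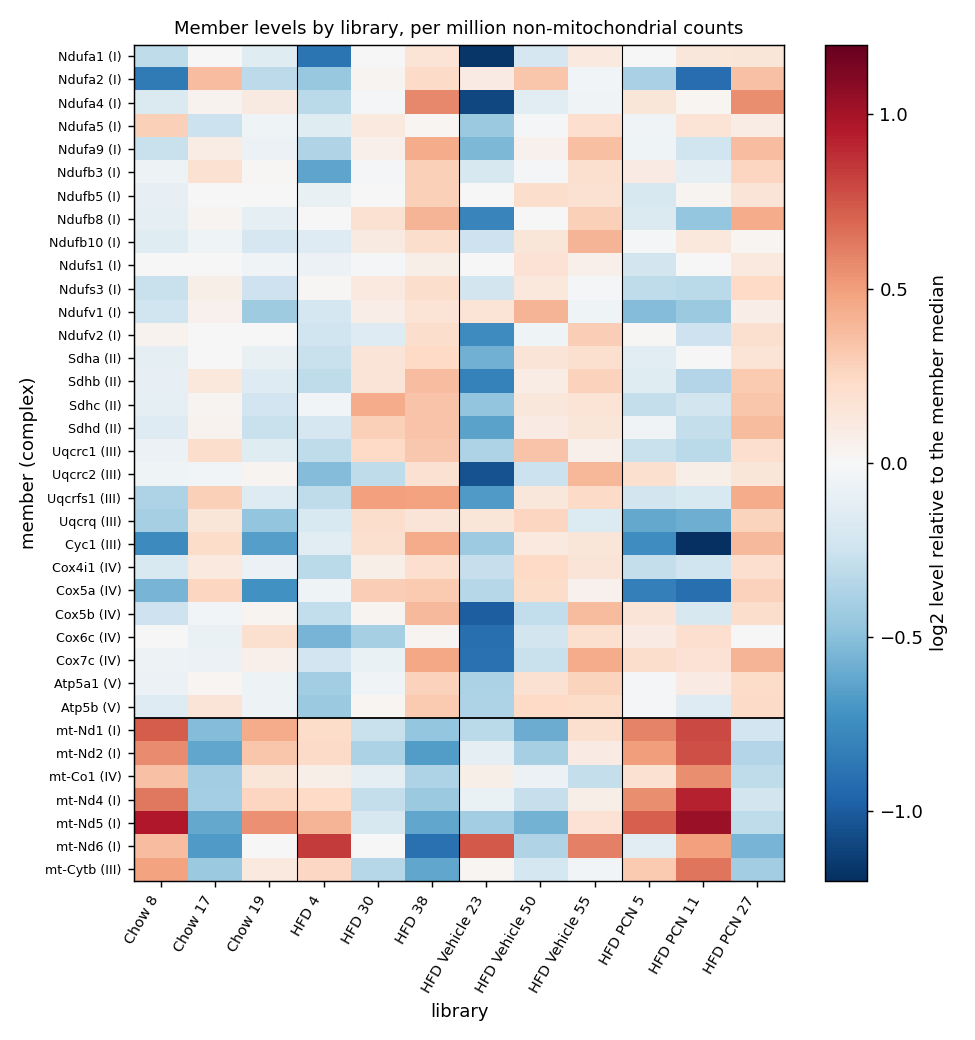
Level of each of the 29 nuclear and the 7 high mt members (below the line) in each library, as log2 relative to the member's median over the 12 libraries, as counts scaled to the library total outside the mitochondrial genome. HFD 38 and HFD PCN 27 have all 29 nuclear members above their medians, and Cyc1 and Cox5a are low in Chow 8, Chow 19, HFD PCN 5 and HFD PCN 11.

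RefSeq promoter windows (GRCm38.p6, 250 bases before to 50 after a start) were found for 20 of the 29 nuclear members, 21 windows in all. The palindromic motif of nuclear respiratory factor 1 (NRF1), a factor known for respiratory genes, matched on either strand in 5 windows (23.8%), beside 4.6% of all 32851 windows. These were of Ndufa5 (2 overlapping windows that hold the same site), Sdha, Sdhd and Uqcrc1, so the share of windows counts the Ndufa5 site in both of its windows. The region before the start of Sdha, chr13:74350241-74350350 on the minus strand, is shown because it holds 3 matches, in capitals.
Sdha: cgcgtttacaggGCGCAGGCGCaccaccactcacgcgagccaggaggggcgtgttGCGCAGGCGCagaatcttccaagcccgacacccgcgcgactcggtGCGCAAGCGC
The ETS motif CCGGAAG, bound by GABPA, was in 14.3% of the members' windows and 8.86% of all, the SP1 motif GGGCGG in 47.6% and 35.7%, and the NF-Y motif CCAAT in 19% and 37.4%. In 52 windows of the other nuclear subunits these 3 motifs were in 25%, 36.5% and 48.1%, and that of NRF1 was in 26.9%. The members' low NF-Y share and higher SP1 share were thus not seen in those subunits. Those of YY1, ERR (TCAAGGTCA) and CREB (TGACGTCA) were in 1 window each. For the direct repeats that PXR can bind, only exact copies of a fixed half-site with spacers of 3 or 4 bases were searched. These exact forms were in 0 of the 21 windows and in 0 and 4 of all 32851 windows. They are so rare in all windows that their absence from the members' windows cannot tell whether the members hold PXR sites. A match is a description of letters, and members with and without an NRF1 match (Sdha at 0.28, Ndufs3 at 0.41 in HFD against Chow) were not compared by a test.

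In the authors' deposited table, 0 members passed an adjusted p of 0.05 in either comparison. The authors' deposited table gave Sdhc a log2 fold change of 0.46 (adjusted p 0.451) in HFD against Chow, and Ndufa4 0.62 (0.357) and mt-Nd5 0.80 (0.26) in HFD PCN against HFD Vehicle.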

How the data were processed

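RNA was sequenced in 12 duodenum libraries, 3 per group. The authors deposited raw counts per gene in 2 tables of 6 libraries (Chow with HFD, HFD Vehicle with HFD PCN); their own comparison values (log2 fold change, p-value) are beside them. Tools named in the submitters' processing notes are HISAT2, HTSeq and DESeq2, and the build is GRCm38 (mm10). Versions, annotation release, strand setting and the handling of reads with several matches are not given in the sources used here.

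Each comparison was fitted on all genes of its 6 libraries with edgeR 4.0.16 in R 4.3.3 (filterByExpr, TMM, robust quasi-likelihood F-test, Benjamini-Hochberg, threshold 0.05); the SE is the log2 fold change over the square root of F. HFD Vehicle against HFD used genes in both tables (26121). DESeq2 1.42.0, other scalings, no filter, no mitochondrial rows, all libraries in 1 fit and leaving out each library were alternatives. The fit was tested on simulated counts. Named nuclear members were the 6 with the smallest p per comparison and the most counted of each complex; every mt member was named. Of other lists, the 2 with the smallest p could be named. Members and lists were chosen with earlier results of these data known.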

Additional observations from a re-analysis of the deposited data

How the results depend on the processing

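Depth (4676718 to 20684369 counts) limits mt-Atp8, mt-Nd3 and mt-Nd4l, which held at most 22 counts in a library, and 3 libraries per group limit every call. Members called stayed at 0 in HFD against Chow and in HFD Vehicle against HFD under each alternative run. In HFD PCN against HFD Vehicle the count ran from 0 to 1 over the fits leaving out 1 library, with 1 without HFD Vehicle 55, and was 0 under the other alternatives. Leaving out 1 library gave nuclear medians of 0.17 to 0.42, -0.10 to 0.24 and -0.33 to 0.01 and mt medians of -0.37 to 0.09, 0.13 to 0.60 and -0.20 to 0.15 in HFD against Chow, HFD PCN against HFD Vehicle and HFD Vehicle against HFD. Without HFD Vehicle 23 and 50 together, where the lone HFD Vehicle library is assumed to vary like the other group, the nuclear median was -0.10 in HFD PCN against HFD Vehicle (4 positive, 25 negative) and 0.01 in HFD Vehicle against HFD. This setting and the one without CT010467.1 (nuclear median 0.28) were chosen after seeing the data. The number of all genes called by edgeR in HFD against Chow was 10, and it was 351 without a filter, 138 by DESeq2, 2 in the fit of all libraries and 4 (without Chow 8) to 63 (without HFD 38) with 1 library left out. In HFD PCN against HFD Vehicle it was 10, and it was 843, 320, 34 and 0 (without HFD Vehicle 50 or HFD PCN 11) to 3697 (without HFD Vehicle 55). In HFD Vehicle against HFD it was 0, and it was 1, 29, 1 and 0 to 260 (without HFD Vehicle 55). The cause of these changes was not tested. Without mitochondrially encoded genes the mt members have no value. No paired analysis was possible because the library numbers are not shared between groups.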
